A study of Mus musculus with 16 samples.

Results

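Muscle of young mice labelled Mfn2 knockout (KO) was set directly against muscle of old control mice. The comparison joins the loss of Mfn2 at an early age with ordinary ageing, and it asks how far a young KO muscle lies from an old normal one. It took the 4 arrays titled Young KO and the 4 titled Old Control out of 16 arrays, each made from the quadriceps of 1 mouse. Young KO mice were 6 months old and had the genotype Mfn2 KO, and old control mice were 22 months old and had the genotype Control. These groups differed in age and in genotype together, so that the share of either in a difference cannot be told apart within these 8 arrays. The other 8 arrays, from young control and old KO mice of the same ages, held the same contrast of ages with the genotypes exchanged. All mice ate chow, no drug or other agent is named, and the sources used here do not give the promoter or Cre, the cells that carry the deletion, or the part of the gene removed. Family also differed: young KO mice came from families C, D, D and Other in the order of replicate numbers 1 to 4, and old control mice from A, B, B and Other.

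Mfn2 encodes mitofusin 2, a GTPase of the outer mitochondrial membrane that tethers and fuses mitochondria and links them to the endoplasmic reticulum. Mitochondria divide and fuse continually, and fusion lets them share their contents. Skeletal muscle fibres hold many of them, packed between the contractile filaments. Around the fibres lies a sheath of collagens and other matrix proteins made mainly by fibroblasts. Aged muscle is known for a loss of fibre size, more immune cells and a stiffer matrix.

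Signals were log2 values, on which a difference of 1 is a doubling. Each of 17097 genes was represented by its brightest probe set over all 16 arrays, and a difference is young KO minus old control throughout. A gene was called when limma's test, with the replicate number as a block, gave a Benjamini-Hochberg adjusted p under 0.05 over all genes. The median signal of an array lay between 5.09 and 5.22 in all 16 arrays, and the SD of its values between 1.81 and 2.04. Both split by replicate number in every group. Medians were 5.18 to 5.22 in numbers 1 and 2 and 5.09 to 5.13 in numbers 3 and 4. The SD was 1.99 to 2.04 in numbers 1 and 2 and 1.81 to 1.92 in numbers 3 and 4. The number of arrays limits the precision, with a median standard error (SE) of 0.0923 for a difference. The 12 genes of the muscle identity list, such as creatine kinase and skeletal actin, had a mean signal of 11.58 to 11.65 in young KO and 11.61 to 11.67 in old control muscle. Xist lay between 3.53 and 5.92 in young KO and between 3.95 and 5.95 in old control muscle, high in numbers 3 and 4 of each group.

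Mfn2 itself was examined first. It read 8.41, 8.49, 8.38 and 8.54 in young KO muscle (mean 8.45 ± 0.07, SD, n = 4) and 8.52, 8.67, 8.34 and 9.18 in old control muscle (8.68 ± 0.36). The groups overlapped, because the old control of number 3 was below every young KO array, and the KO array was lower in 3 of 4 numbers. The difference of -0.23 left the young KO at 85.5% of the old control. It was within the spread of the mice, with a two-sided exact permutation p of 0.343 over 70 splits, where the smallest possible p is 0.0286. A second, dimmer Mfn2 probe set differed by -0.07 (exact permutation p = 0.8). Young control muscle read 8.66, 9.05, 8.03 and 9.45, and old KO muscle read 8.31, 8.01, 6.32 and 8.32. In number 3 the young KO array was thus above its young control. Whether the probe set lies inside the deleted part is not known, so Mfn2 does not check the labels of these 8 arrays, and all directions below rest on the labels.

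**Figure D1:**
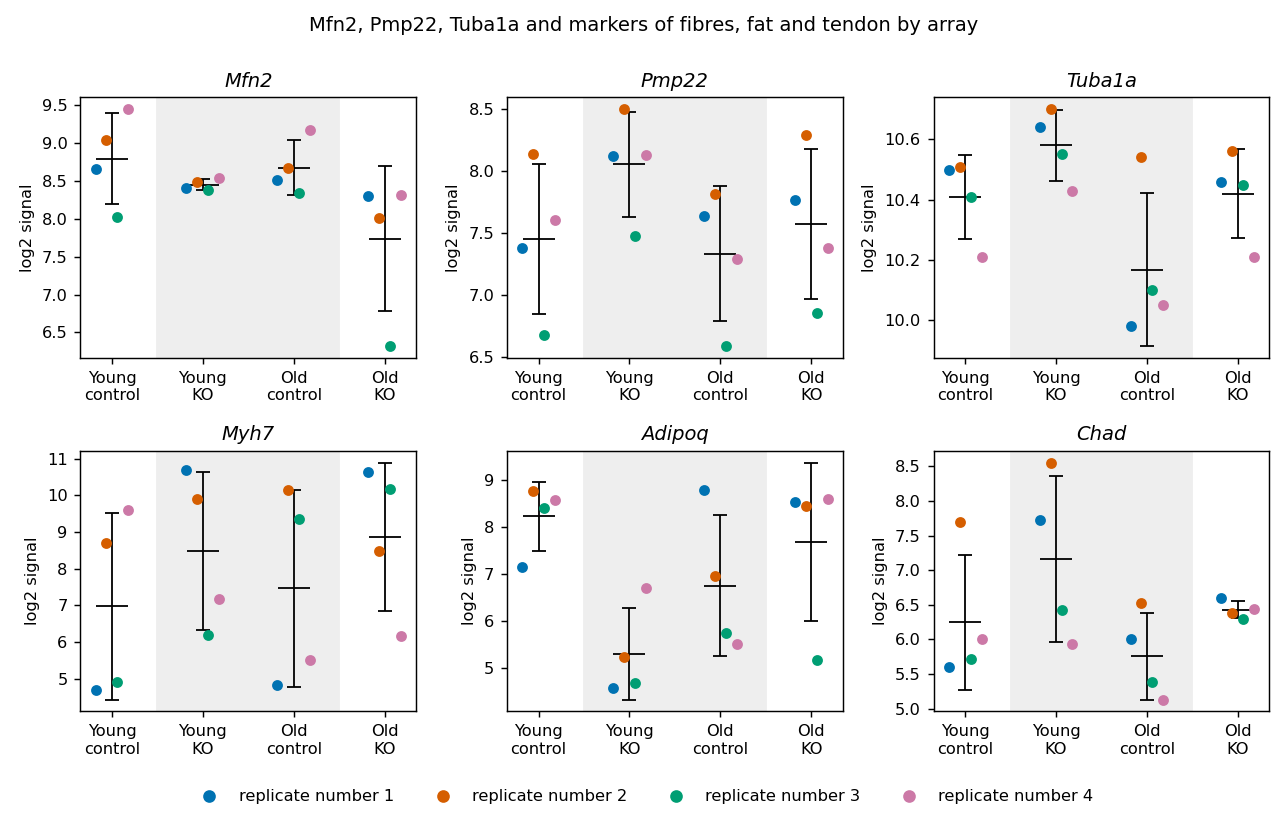
Log2 signal of Mfn2, Pmp22, Tuba1a, Myh7, Adipoq and Chad in every array, by group on the horizontal axis, with points coloured by replicate number, bars for the mean and SD of 4 mice, and grey shading over young KO and old control muscle. Mfn2 overlaps between the shaded groups, Myh7 ranges from 4.83 to 10.70 in them, and Adipoq lies between 4.58 and 6.70 in young KO and between 5.52 and 8.80 in old control muscle.

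Between young KO and old control muscle 31 of 17097 genes were called, 0.181% of those tested, and they led with the fibrillar collagens. Higher in young KO muscle were 16 genes (0.0936%), among them Col1a1, Col3a1, Col5a1, Col5a2 and the collagen-binding protein Sparc. Lower were 15 genes (0.0877%), of which Dkk3, Kcnab1, Rasd2, Spock2, Serpina3n, Amy1 and Mib1 differed by more than 1. The sizes of the called differences ran from 0.41 to 2.30, and 22 of 31 were under 1. All 31 genes had the same sign in all 4 replicate numbers, and for 15 of them the 4 young KO arrays did not overlap the 4 old control arrays, where 0.684% of all genes did so above and 0.731% below. At an unadjusted p under 0.05 there were 836 higher genes (4.89%) and 628 lower genes (3.67%). The median difference over all genes was 0.0034, and 51.2% of genes were above 0.

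The number of calls depended on the block and on single arrays. Without the replicate block 3 genes were higher (Sparc, Mlf1 and Col3a1) and 0 lower, while 28 of 31 still had an unadjusted limma p under 0.05. With family in the fit as well as the block, 0 genes were higher and 1 was lower, Rasd2. Only mice labelled Other occurred at both ages, so the step between ages in that fit rests on them. With the 3′ to 5′ signal of the pyruvate carboxylase control in the fit 0 genes were called, with a smallest limma adjusted p of 0.0991 and with 31 of 31 under 0.05 before adjustment. That signal ranged from -0.31 to 0.13 in young KO and from -0.32 to 0.14 in old control arrays. In each of these groups it was lower in numbers 1 and 2 than in numbers 3 and 4. Leaving out young KO number 1, 2, 3 or 4 left 4, 6, 8 and 4 higher genes and 2, 0, 5 and 2 lower genes. For old control number 1, 2, 3 or 4 the counts were 3, 9, 7 and 3 higher and 0, 4, 2 and 2 lower. All 31 genes kept their sign in each of these settings.

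The higher genes were led by proteins of the extracellular matrix. Col1a1, the main chain of type I collagen, read 10.01, 10.41, 9.52 and 10.22 in young KO muscle and 9.06, 9.01, 8.47 and 8.10 in old control muscle. Every young KO array lay above every old control array, and the old control of number 4 was the lowest. The difference of 1.38 (SE 0.17, limma adjusted p = 0.0158) was a fold of 2.61. Col1a1 kept its call in 18 of 23 alternative analyses. The exceptions were the fits without the block, with family, with the control signal, of only the 8 arrays, and without replicate number 2. Young control muscle had a mean of 9.68 ± 0.40 and old KO muscle of 8.98 ± 0.18 (SD, n = 4), between those of the other groups.

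Col3a1, which forms the fine type III fibrils of the muscle sheath, read 10.83, 10.90, 10.79 and 11.32 in young KO and 9.94, 10.08, 10.17 and 9.85 in old control muscle. Young KO arrays were again all above old control arrays, with number 4 apart at the top. The difference was 0.95 (SE 0.13, limma adjusted p = 0.0158), a fold of 1.93. Sparc, a secreted protein that binds collagen and calcium, read 10.87, 10.97, 10.90 and 11.18 against 10.55, 10.54, 10.46 and 10.39, again without overlap. Its difference of 0.49 (SE 0.07) also had a limma adjusted p of 0.0158.

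Type V collagen, which starts and limits the growth of type I fibrils, was higher in both of its main chains. Col5a2 read 7.70, 7.85, 7.20 and 7.76 in young KO and 6.86, 7.0, 6.47 and 6.01 in old control muscle, a difference of 1.04 (SE 0.16, limma adjusted p = 0.0237). Col5a1 read 8.00, 7.94, 7.43 and 7.99 against 7.26, 7.31, 7.10 and 6.91, a difference of 0.69 (SE 0.13, limma adjusted p = 0.0436). Neither gene overlapped between the groups, and for each the young KO array of number 3 was the lowest of its group. The call of Col5a1 held in 2 of 23 alternative analyses and that of Col5a2 in 8.

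**Figure D2:**
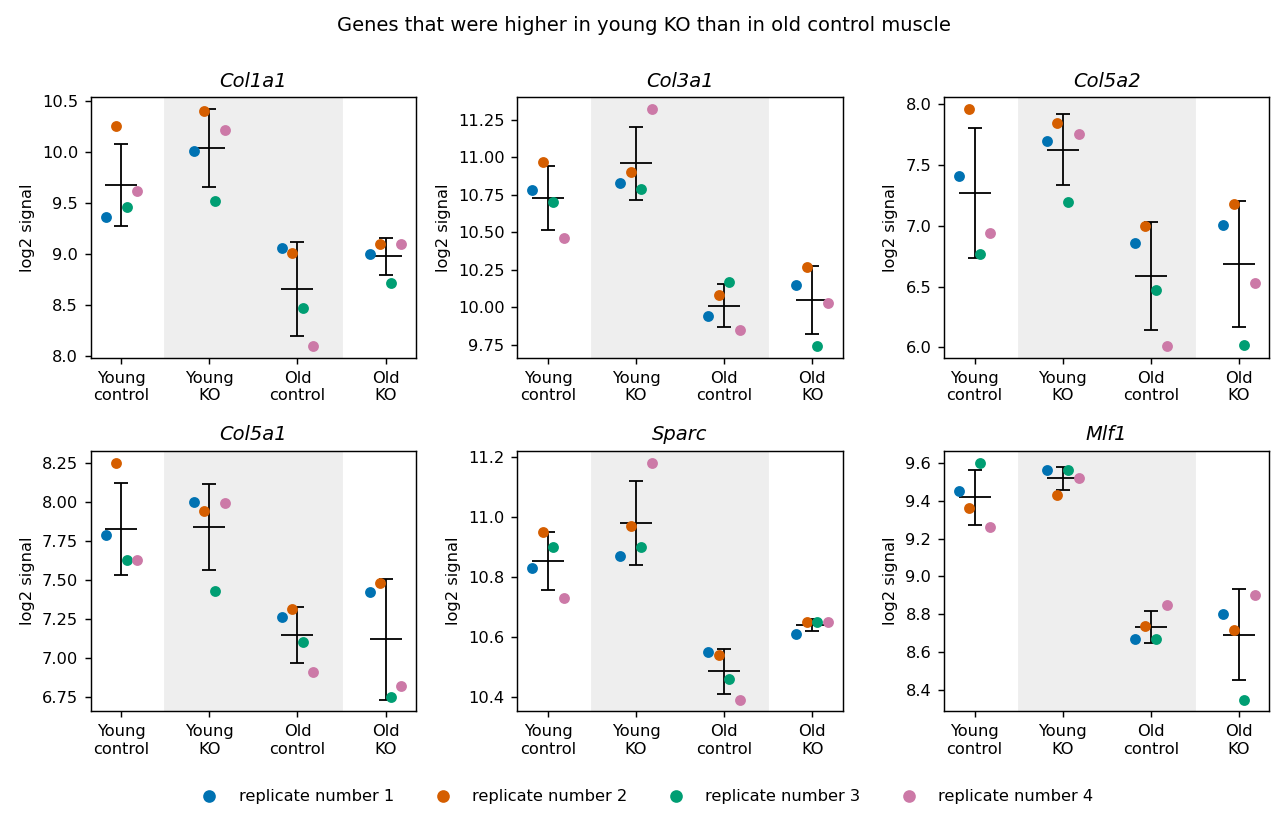
Log2 signal of Col1a1, Col3a1, Col5a2, Col5a1, Sparc and Mlf1 in every array, by group, with points coloured by replicate number and bars for the mean and SD of 4 mice. In all 6 genes the 4 young KO arrays lie above the 4 old control arrays, as for Col1a1 at 9.52 to 10.41 against 8.10 to 9.06.

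Because these genes moved together, their promoters are shown for the called genes of the group that the RefSeq table (GRCm38.p6) holds, with Mlf1, the other called gene of smallest p, for contrast. Each line gives the 250 bases before the gene's start, 5′ to 3′ in the direction of the gene. Capitals mark matches on either strand to 4 motifs. The first is TATAAA, known from the TATA box of many promoters. The others are CCAAT, known from the box of that name, then GGGCGG, the core of sites for the factor Sp1, and TGANTCA, a site for AP-1 factors. No matches overlapped. The regions are chr1:45311288-45311537 (plus strand) for Col3a1, chr2:27886175-27886424 (plus) for Col5a1, chr11:55420081-55420330 (minus) for Sparc and chr3:67373847-67374096 (plus) for Mlf1.
Col3a1: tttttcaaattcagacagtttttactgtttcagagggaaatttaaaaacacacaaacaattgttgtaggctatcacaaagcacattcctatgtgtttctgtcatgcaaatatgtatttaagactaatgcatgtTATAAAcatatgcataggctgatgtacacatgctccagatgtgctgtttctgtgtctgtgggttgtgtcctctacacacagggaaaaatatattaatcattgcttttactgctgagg
Col5a1: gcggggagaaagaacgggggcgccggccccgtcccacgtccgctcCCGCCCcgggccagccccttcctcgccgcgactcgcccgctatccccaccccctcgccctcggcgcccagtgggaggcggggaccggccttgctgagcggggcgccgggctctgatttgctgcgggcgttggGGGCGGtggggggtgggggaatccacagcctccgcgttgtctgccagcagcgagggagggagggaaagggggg
Sparc: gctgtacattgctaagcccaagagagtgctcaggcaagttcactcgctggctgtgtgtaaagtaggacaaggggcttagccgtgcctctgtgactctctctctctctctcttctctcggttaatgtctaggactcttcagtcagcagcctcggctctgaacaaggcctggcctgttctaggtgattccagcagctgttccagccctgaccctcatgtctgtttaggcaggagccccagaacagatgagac
Mlf1: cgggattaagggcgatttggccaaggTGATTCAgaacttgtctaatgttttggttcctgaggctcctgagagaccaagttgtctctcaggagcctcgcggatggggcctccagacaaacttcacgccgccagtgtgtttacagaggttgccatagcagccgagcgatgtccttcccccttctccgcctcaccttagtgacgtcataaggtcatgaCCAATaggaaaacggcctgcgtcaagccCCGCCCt
Col3a1 held TATAAA, with its first base 117 bases before the start. Col5a1 held GGGCGG at 205 and 73 bases before the start, and the Sparc window held none of these motifs. Mlf1 held TGANTCA at 224, CCAAT at 35 and GGGCGG at 7 bases before the start. The 3 matrix promoters shared none of these motifs. Of all 32851 promoters of this length in the table, 12.4% held TATAAA, 33.8% CCAAT, 32.7% GGGCGG and 6.75% TGANTCA. Of the 25 called genes in the table, 3, 10, 14 and 1, in that order, held them in at least 1 promoter. A gene with several promoters there had more chances to be counted. These counts of genes and the shares of promoters are therefore in unlike units and cannot be compared directly.

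The rest of the collagen and matrix list was read beside its called members. Of 34 measured genes 5 were called higher and 0 lower, where 0.0936% of all genes were called higher. All 34 had a difference above 0, against 51.2% of all genes, and 18 had an unadjusted p under 0.05, against 4.89%. The list was written with earlier results of these data known, and it leaves out Spock2. That matrix proteoglycan was called lower, by -1.27. The median of the list was 0.36, against 0.0034 over all genes, and it was 0.38, 0.39, 0.12 and 0.59 in numbers 1 to 4. The young KO arrays stood above all old control arrays for 8 of the 34 genes, against 0.684% of genes overall. The list's median stayed between 0.30 and 0.53 in 23 alternative analyses.

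Members that missed the threshold are given with their values; Col6a1, Col6a2, Col15a1, Postn and Col1a2 were chosen after their values were seen. Col6a1, a chain of the beaded type VI collagen that anchors fibres, differed by 0.67 (limma adjusted p = 0.0634), and its partner Col6a2 by 0.63 (0.242). Col15a1, of the basement membrane, differed by 0.78 (0.0634) and did not overlap between the groups. Postn, a matrix protein of remodelling tissue, differed by 0.43 at a low signal of 4.83 against 4.40. Col1a2, the partner chain of Col1a1, was represented by a dim probe set near the bottom of the scale, at 4.46 ± 0.09 against 4.33 ± 0.14, and differed by 0.13.

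Enzymes and chaperones that fold and process collagen were less uniform. Of 24 measured genes 0 were called, 16 lay above 0 and 8 below, and the median was 0.07. Serpinh1, the collagen chaperone HSP47, read 8.99, 8.97, 8.38 and 8.64 in young KO and 7.78, 8.64, 7.08 and 7.92 in old control muscle. It was higher in 4 of 4 numbers, but the groups overlapped, and its difference of 0.89 had a limma adjusted p of 0.0928. Plod1, which hydroxylates collagen lysines, differed by 0.41 (adjusted p = 0.216), and Pcolce, which helps to cut procollagen and was chosen after its values were seen, by 0.41 (0.463).

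Markers of the cells that make matrix were read beside the collagens. Of 14 fibroblast and progenitor genes 13 lay above 0, with a median of 0.12, and 1 was called, Col1a1, which both lists hold. Its median was 0.09, 0.12, 0.01 and 0.57 by number and turned to -0.0150 without replicate number 4. The mean signal of that list was 7.22 to 7.79 in young KO and 7.11 to 7.62 in old control arrays. Cd34 differed by 0.40 and Thy1 by 0.38, neither called. The 11 tendon genes all lay above 0, with a median of 0.52, and 0 were called. Their mean signal was 5.53 to 6.92 in young KO and 5.46 to 6.31 in old control arrays. Chad, a cartilage and tendon matrix protein, read 7.72, 8.55, 6.42 and 5.93 against 6.00, 6.52, 5.38 and 5.13, and Tnmd, the tendon marker tenomodulin, differed by 0.79. By number the tendon list's median was 0.66, 0.59, 0.63 and -0.0021, so that it lay near 0 in number 4, where the collagen list was highest. With family and the block it was 0.0755. The part of these cell types in the collagen differences was not tested, and fewer cells of a type and less RNA per cell cannot be told apart in whole muscle.

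Vessel genes mostly lay above 0, without a call. Of 16 endothelial genes 13 lay above 0, with a median of 0.13. At an unadjusted limma p under 0.05, 4 were higher, against 4.89% of all genes. The median was 0.08 without old control number 1 and 0.27 without replicate number 3. Tek, the angiopoietin receptor, differed by 0.56 (limma adjusted p = 0.131) and its relative Tie1 by 0.42. Rgs5, a marker of pericytes, read 10.31, 10.58, 10.23 and 10.39 in young KO and 9.83, 10.13, 10.18 and 9.95 in old control muscle. These groups did not overlap, and the difference of 0.36 had a limma adjusted p of 0.179. Notch3, a receptor of mural cells, differed by 0.37. The smooth muscle and pericyte list had 7 of 9 genes above 0 and 2 below, the lowest at -0.32. Its median of 0.05 turned to -0.05 with family and the block. By unadjusted limma p under 0.05, 2 were higher and 1 was lower, against 4.89% and 3.67% of all genes. Without overlap between the groups 1 was higher and 1 lower, against 0.684% and 0.731%.

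Outside the matrix the firmest higher gene was Mlf1, myeloid leukaemia factor 1, which is abundant in muscle. It read 9.56, 9.43, 9.56 and 9.52 in young KO and 8.67, 8.74, 8.67 and 8.85 in old control muscle. The spread within each group was small beside the gap between them. The difference of 0.78 (SE 0.11, limma adjusted p = 0.0158) was a fold of 1.72, and its call held in 17 of 23 alternative analyses.

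Genes of cell division, chromatin and growth control were also among those higher. Cdkn1b, the cyclin-dependent kinase inhibitor p27, read 8.12, 8.22, 8.07 and 8.33 against 7.77, 7.68, 7.06 and 7.61, without overlap (difference 0.65, limma adjusted p = 0.0243). Ccnd2, cyclin D2, read 7.04, 7.62, 6.32 and 7.05 against 6.40, 6.61, 5.60 and 5.86. Its groups overlapped, since number 3 was low in each, but it was higher in 4 of 4 numbers (difference 0.89, limma adjusted p = 0.0276). Dnmt3a, a de novo DNA methyltransferase, was higher by 0.56 with no overlap, and H3c11, a replication-dependent histone H3, by 0.64 with overlap. These members do opposite things in the cell cycle, and of the 21 genes of the cell cycle list 0 were called, with a median of -0.03.

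Pmp22, peripheral myelin protein 22, read 8.12, 8.50, 7.48 and 8.13 in young KO and 7.64, 7.82, 6.59 and 7.29 in old control muscle. The groups overlapped because number 3 was low in both, and the young KO array was higher in 4 of 4 numbers. The difference was 0.72 (SE 0.11, limma adjusted p = 0.0237). Of 9 Schwann cell and nerve genes Pmp22 was the 1 called, and their median was 0.01. Tuba1a, an alpha-tubulin of microtubules, read 10.64, 10.70, 10.55 and 10.43 against 9.98, 10.54, 10.10 and 10.05, a difference of 0.42 (limma adjusted p = 0.035). Tubulin genes are close copies, and this probe set may read relatives of Tuba1a.

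The remaining higher genes were Sertad4 (0.73), Hspa4l (0.58), Disp1 (0.50) and Arhgef7 (0.42). Hspa4l belongs to the HSP110 family of chaperones, Disp1 releases Hedgehog ligands, and Arhgef7 activates the small GTPases Rac1 and Cdc42. All 4 overlapped between the groups, and Sertad4 and Disp1 had means under the median gene in old control muscle, at 4.28 and 4.38. A second, dim probe set of Arhgef7 went the other way by -0.07, at a signal of 3.07.

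Lower in young KO muscle by the largest amount was Dkk3, a secreted member of the Dickkopf family, whose other members curb Wnt signalling. It read 6.58, 7.34, 5.40 and 5.96 in young KO and 8.92, 8.91, 8.06 and 8.59 in old control muscle. The highest young KO array lay below the lowest old control array, with wide gaps between mice of the young group. The difference of -2.30 (SE 0.39, limma adjusted p = 0.035) made old control muscle 4.92-fold higher. Young control muscle was as low, at 6.77, 7.17, 6.22 and 5.27.

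Kcnab1, a beta subunit of voltage-gated potassium channels, read 6.80, 6.91, 6.61 and 6.85 in young KO and 8.92, 8.40, 8.62 and 8.40 in old control muscle. The groups stood far apart, and the difference of -1.79 (SE 0.28, limma adjusted p = 0.0256) was a 3.47-fold lower signal. Rasd2, a Ras-like GTPase known as Rhes, read 7.15, 7.19, 7.04 and 5.90 against 8.61, 8.35, 8.04 and 8.60. Its young KO array of number 4 stood well below the other 3, and the difference was -1.58 (SE 0.28, limma adjusted p = 0.0408).

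Spock2, a proteoglycan of the extracellular matrix, was lower where the collagens were higher. It read 6.51, 7.11, 5.68 and 6.53 in young KO and 8.18, 7.79, 7.50 and 7.47 in old control muscle, without overlap (difference -1.27, limma adjusted p = 0.0428). Serpina3n, a secreted inhibitor of serine proteases, read 5.92, 5.95, 5.13 and 5.49 against 7.69, 7.05, 6.44 and 5.89. Its groups overlapped through the old control of number 4, and old control muscle varied most (difference -1.14, limma adjusted p = 0.0256). Amy1, an amylase that cleaves starch and glycogen, read 8.94, 8.98, 8.84 and 8.45 against 10.05, 10.08, 9.69 and 9.58 (difference -1.05, limma adjusted p = 0.035). Amylase genes are close copies, so that Amy1 stands for any that its probe set reads.

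**Figure D3:**
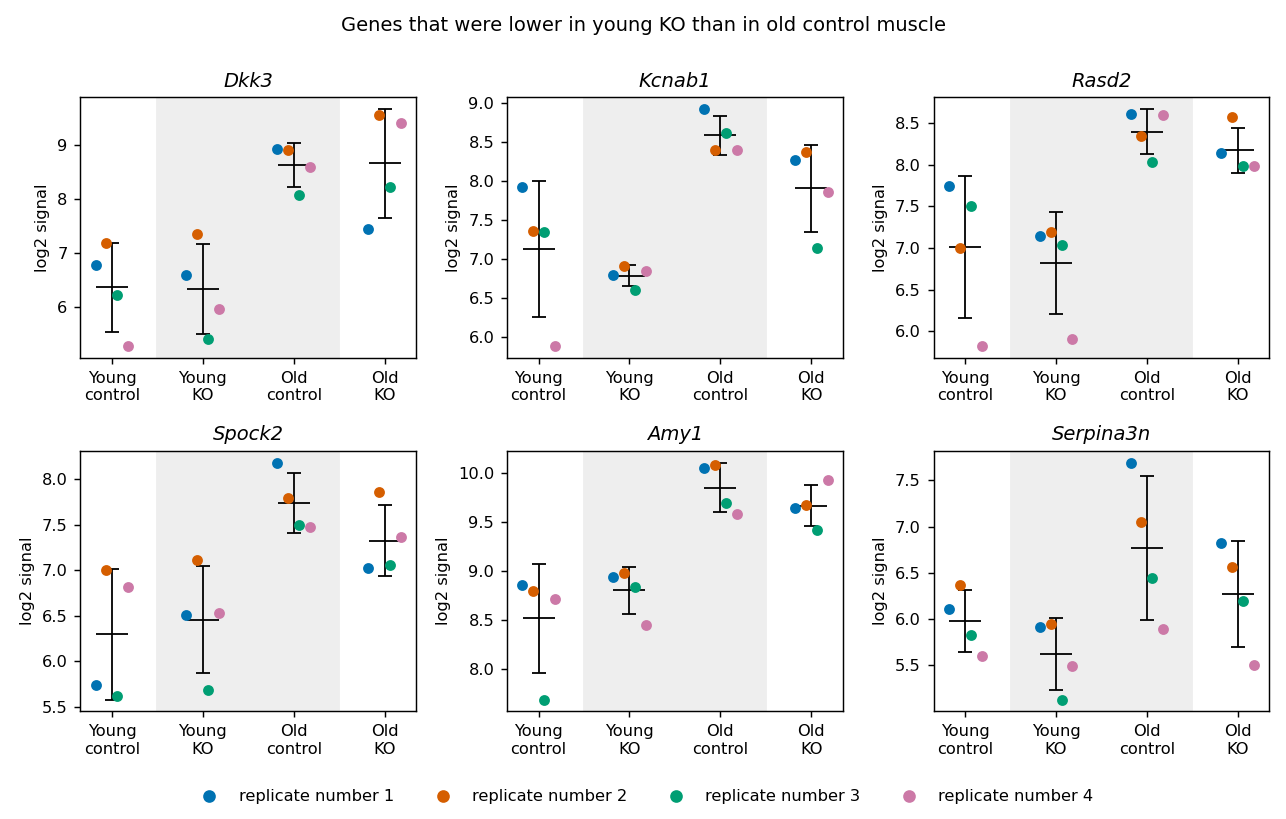
Log2 signal of Dkk3, Kcnab1, Rasd2, Spock2, Amy1 and Serpina3n in every array, by group, with points coloured by replicate number and bars for the mean and SD of 4 mice. In 5 of these genes the young KO arrays lie below all old control arrays, and Serpina3n overlaps through old control number 4 at 5.89.

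Mib1, a ubiquitin ligase that acts on Notch ligands, read 9.55, 9.89, 8.99 and 8.79 in young KO and 10.58, 10.64, 9.97 and 10.09 in old control muscle. Its groups did not overlap (difference -1.01, limma adjusted p = 0.0428). Hook1 (-0.74) and Map7 (-0.58), which both bind microtubules, were lower, as was Prkcz (-0.57), an atypical protein kinase C. The others were Otog (-0.60), Snhg16 (-0.56), a long noncoding host of small nucleolar RNAs, Themis3 (-0.49), Gm15241 (-0.45) and Rhpn2 (-0.41). Rhpn2 and Gm15241 were near the bottom of the scale, at 2.79 and 3.79 in young KO muscle, where signal and background are hard to separate. Over the whole set of called genes 8 of 31 had a mean under 5.15, the median of all gene means.

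Immune genes mostly lay below 0 in young KO minus old control, with 0 calls. Of 20 macrophage genes 19 lay below 0, with a median of -0.24, and 4 had an unadjusted p under 0.05, against 3.67% of all genes. Their mean signal was 5.03 to 5.52 in young KO and 5.22 to 5.77 in old control arrays. By number the median was -0.48, -0.35, -0.20 and 0.31, so that number 4 went the other way. It was -0.40 without replicate number 4, and it turned to 0.17 with family and the block. Cd14, a receptor for bacterial lipopolysaccharide, differed by -0.24 (limma adjusted p = 0.243).

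Complement genes followed, with 13 of 14 below 0 and a median of -0.16. By number it was -0.42, -0.40, -0.28 and 0.31, without replicate number 4 it was -0.31, and with family and the block it turned to 0.0988. C4b, a complement component that tags targets after C1 activation, read 5.75, 6.00, 5.81 and 6.44 in young KO and 8.41, 7.69, 6.58 and 6.81 in old control muscle. These groups did not overlap, but the old controls of numbers 1 and 2 stood high, and the difference of -1.37 had a limma adjusted p of 0.158. C1qa, a chain of the first complement component, differed by -0.60 and C3ar1, the receptor for a complement fragment, by -0.47. Each was lower in 3 of 4 numbers.

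Among secreted immune signals the chemokines had the widest values. Of 30 cytokine and NF-kB genes 21 lay below 0, 0 were called and the median was -0.05. Ccl8, which draws monocytes, read 4.44, 4.52, 4.89 and 4.72 against 6.87, 6.58, 5.20 and 5.61, a difference of -1.42 (limma adjusted p = 0.271). Ccl6 differed by -0.83 and Ccl9 by -0.56, and neither overlapped between the groups. Cxcl13, which draws B cells, differed by -1.28. Ccl8 was low and even in young KO muscle and spread widely in old control muscle.

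Immunoglobulin signal had the widest difference of any gene named here. Igkj1, a kappa light chain segment and so a sign of B-lineage cells, read 3.37, 3.37, 4.87 and 4.75 in young KO and 8.63, 5.89, 6.81 and 5.98 in old control muscle. The groups did not overlap, and the difference of -2.74 (SE 0.65) had a limma adjusted p of 0.17. Of 10 B and plasma cell genes 8 lay below 0, 0 were called and the median was -0.06. Mast cell proteases differed less: Cpa3 by -0.55 and Cma1 by -0.35, each without overlap, in a list of 12 genes with 11 below 0. Antigen presentation had 11 of 14 genes below 0 and 0 with an unadjusted p under 0.05, and interferon response had 20 of 28 above 0. The antigen presentation median of -0.08 was -0.39, -0.28, 0.09 and 0.26 by number and turned to 0.23 with family and the block. That of interferon response, 0.05, turned to -0.07 with the pyruvate carboxylase signal fitted.

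Targets of p53, which guards against DNA damage, had 12 of 21 genes below 0, with 0 called. At an unadjusted limma p under 0.05, 5 were lower, against 3.67% of all genes. Their median was -0.03, and it turned to 0.02 without replicate number 1. Sesn2, a stress-induced sestrin, read 5.33, 5.34, 5.02 and 5.13 in young KO and 5.81, 5.53, 5.64 and 5.37 in old control muscle, without overlap (difference -0.38, limma adjusted p = 0.102). Cdkn1a, the kinase inhibitor p21, differed by -0.99, with a single young KO array, number 4, at 6.64 against 9.14 to 9.41 in old control muscle. Sesn1 differed by -0.37 and Phlda3 by -0.39. Eda2r, a p53-induced receptor chosen after its values were seen, differed by -0.43.

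Glucocorticoid targets all lay below 0, 17 of 17, with a median of -0.33 and 0 calls. By number the median was -0.70, 0.01, -0.55 and -0.31, so that number 2 lay near 0. The median kept its sign in 23 of 23 alternative analyses, from -0.48 to -0.18. Tsc22d3, also called GILZ, read 8.48, 9.0, 8.56 and 8.87 against 9.78, 9.12, 9.02 and 9.19, without overlap (difference -0.55, limma adjusted p = 0.381). Fkbp5, a chaperone of the glucocorticoid receptor, differed by -0.94, Cebpd by -0.81 and Sgk1 by -0.28. Of 18 atrophy genes 13 lay below 0, with a median of -0.12, and Fbxo21 differed by -0.25.

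Stretch and Z-disc genes had Mlf1 as their 1 called member and a median of -0.04 over 23 genes, which turned to 0.02 without old control number 4. In this list 6 were lower and 1 was higher at an unadjusted limma p under 0.05, against 3.67% and 4.89% of all genes. Groups did not overlap for 2 lower genes and 1 higher gene, against 0.731% and 0.684%. Ankrd1, a stretch-induced ankyrin repeat protein, read 6.58, 5.91, 5.30 and 4.72 in young KO and 7.42, 7.06, 6.17 and 6.00 in old control muscle. It was lower in 4 of 4 numbers and overlapped between the groups (difference -1.04, limma adjusted p = 0.379). Pdlim3, a Z-disc adaptor, differed by only -0.22 but did not overlap, at 10.88, 10.89, 10.88 and 10.96 against 11.21, 11.03, 11.13 and 11.14. Ldb3, another Z-disc protein, differed by -0.14.

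Mitochondrial genes had medians near 0. Of 33 complex I genes 31 lay above 0, but the median was 0.05 and 0 were called. Ndufa9 had the smallest p of these, at 11.26, 11.27, 11.23 and 11.07 against 11.01, 11.12, 11.10 and 11.05, a difference of 0.13 (limma adjusted p = 0.416). In complexes II to V 34 of 38 genes lay above 0 with a median of 0.05, and in the mitochondrial ribosome 28 of 35, also at 0.05. By number the complex I median was 0.19, -0.0046, 0.01 and 0.02, highest in number 1 and near 0 in the others. Fatty acid oxidation had a median of 0.03 over 20 genes, which turned to -0.13 without replicate number 1, and Pdha1, of the pyruvate dehydrogenase complex, differed by 0.13.

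Among 15 genes of mitochondrial fusion and fission 0 were called, and the median was 0.09, which turned to -0.03 without young KO number 3. Mfn1, the homologue that also fuses outer membranes, read 10.21, 10.16, 10.08 and 9.81 in young KO and a mean of 9.83 ± 0.14 (SD, n = 4) in old control muscle. It was higher in 3 of 4 numbers (difference 0.23, limma adjusted p = 0.525). Of 28 autophagy genes 13 lay above 0 and 15 below, with Uvrag at -0.23, and of 11 mitophagy genes 5 and 6, with Bnip3l, a receptor for the removal of mitochondria, at -0.19. The medians of these lists were -0.0046 and -0.01, and each changed sign in 3 of 23 alternative analyses.

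Regulators of metabolism and iron had larger values without a call. Ppargc1b, a coactivator of mitochondrial biogenesis, read 7.53, 7.65, 6.77 and 7.03 against 6.03, 7.03, 6.13 and 6.53, with overlap and a difference of 0.82 (limma adjusted p = 0.128). Atf5, a transcription factor of the mitochondrial unfolded protein response, differed by 0.72. Each had the largest rise of its list, and these lists were mixed. Insulin and glucose uptake had 13 of 23 genes above 0 and 10 below. Its median of 0.06 turned to -0.01 with the pyruvate carboxylase signal fitted. The integrated stress response had 12 of 21 above 0 and 9 below, with a median of 0.04 and a lowest difference of -1.42. Tfrc, the transferrin receptor that brings iron into cells, read 8.56, 8.36, 8.12 and 8.69 against 6.94, 7.54, 7.02 and 8.03. Its groups did not overlap, and the difference of 1.05 had a limma adjusted p of 0.0634. Slc40a1, the iron exporter ferroportin, differed by 0.59, and the median of 11 iron genes was 0.03. Nrep, chosen after its values were seen, differed by 0.78 without overlap (limma adjusted p = 0.0683).

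Fibre type and fat varied between single mice more than between the groups. The 13 slow fibre genes all lay above 0 with a median of 0.88, but by number it was 4.09, -0.22, -0.97 and 0.78, and 0 had an unadjusted p under 0.05. Myh7, the slow myosin heavy chain, chosen after its values were seen, read 10.70, 9.89, 6.18 and 7.16 in young KO and 4.83, 10.15, 9.34 and 5.51 in old control muscle. Myl3, a slow myosin light chain, read 11.56, 11.09, 11.08 and 9.90 against 6.02, 11.31, 10.92 and 8.31. The old controls of numbers 1 and 4 were thus low in slow fibre signal, and without replicate number 1 the difference of Myh7 turned from 1.03 to -0.59 and the list's median to -0.24. The 15 fast fibre genes had a median of -0.03.

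Fat markers had no called gene. Adipoq, adiponectin, read 4.58, 5.24, 4.68 and 6.70 in young KO and 8.80, 6.96, 5.75 and 5.52 in old control muscle, with overlap (difference -1.46, limma adjusted p = 0.608). Retn, the fat cell hormone resistin, differed by -0.78. All 15 adipocyte genes lay below 0, with a median of -0.26 and 0 calls. That median was -0.48 without old control number 4 and -0.0081 with family and the block. Their mean signal was 6.27 to 6.53 in young KO, 6.47 to 7.26 in old control and 6.52 to 7.48 in young control muscle.

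**Figure D4:**
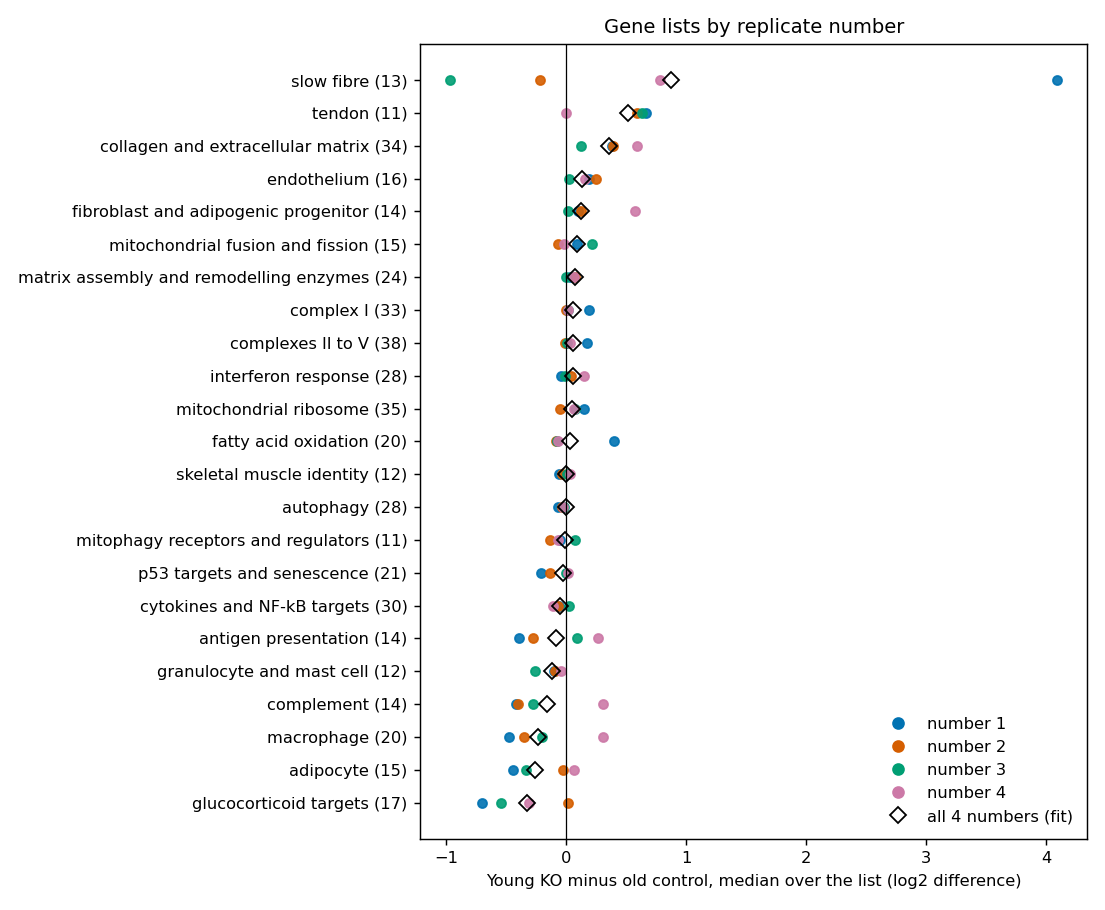
Median log2 difference, young KO minus old control, of 23 gene lists, with their measured sizes in parentheses. Coloured points give the median within each replicate number and open diamonds the median of the fitted differences. Collagen genes lie above 0 in all 4 numbers, slow fibre genes range from -0.97 to 4.09, and mitochondrial lists lie near 0.

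The other 8 arrays gave the same contrast of ages with the genotypes exchanged, young control minus old KO. No array is in both comparisons, though the fit shares its block and its spread between them. A difference of age alone would have the same sign in the 2 contrasts and a difference of genotype alone opposite signs. Of the 31 called genes 29 had the same sign in young control minus old KO, 14 of 16 higher and 15 of 15 lower genes, where 52.8% of all genes did. With the same sign, 20 had an unadjusted limma p under 0.05 there, against 11.7% of all genes in either direction, and 0 had it with the opposite sign. Groups did not overlap for 11 of them, in the same direction, against 1.08% higher and 0.948% lower over all genes. The sizes were smaller there, with a median ratio of 0.493; the 31 genes had been picked on the first contrast. Families C and D held only young and A and B only old mice in these contrasts, so that age and family cannot be told apart.

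Genes called in both contrasts were Dkk3, Amy1, Mlf1 and Col5a1, which made 12.9% of the 31 genes called in each. Dkk3 differed by -2.30 and -2.29, Amy1 by -1.05 and -1.15, Mlf1 by 0.78 and 0.73, and Col5a1 by 0.69 and 0.71. For each of these 4 genes the 2 values differed by less than the SE of either. In young control muscle Mlf1 read 9.45, 9.36, 9.60 and 9.26, and in old KO muscle 8.80, 8.72, 8.35 and 8.90, so that age split the 16 arrays with no overlap. Col1a1 differed by 1.38 and 0.69, Col3a1 by 0.95 and 0.68, Sparc by 0.49 and 0.21, and Kcnab1 by -1.79 and -0.78.

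Pmp22 and Tuba1a were the 2 called genes with opposite signs. Pmp22 differed by 0.72 and by -0.12, and Tuba1a by 0.42 and by -0.01. In young control muscle Pmp22 read 7.38, 8.14, 6.68 and 7.61, below the young KO array of each number, and in old KO muscle 7.77, 8.29, 6.86 and 7.38. Young KO muscle thus had the highest reading of the 4 groups in every number. The difference from young control, which shares the KO arrays with the first contrast, was 0.60. Sertad4 and Gm15241 differed by 0.02 and -0.03 in the mirrored contrast, near 0, and Serpina3n by -0.29.

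**Figure D5:**
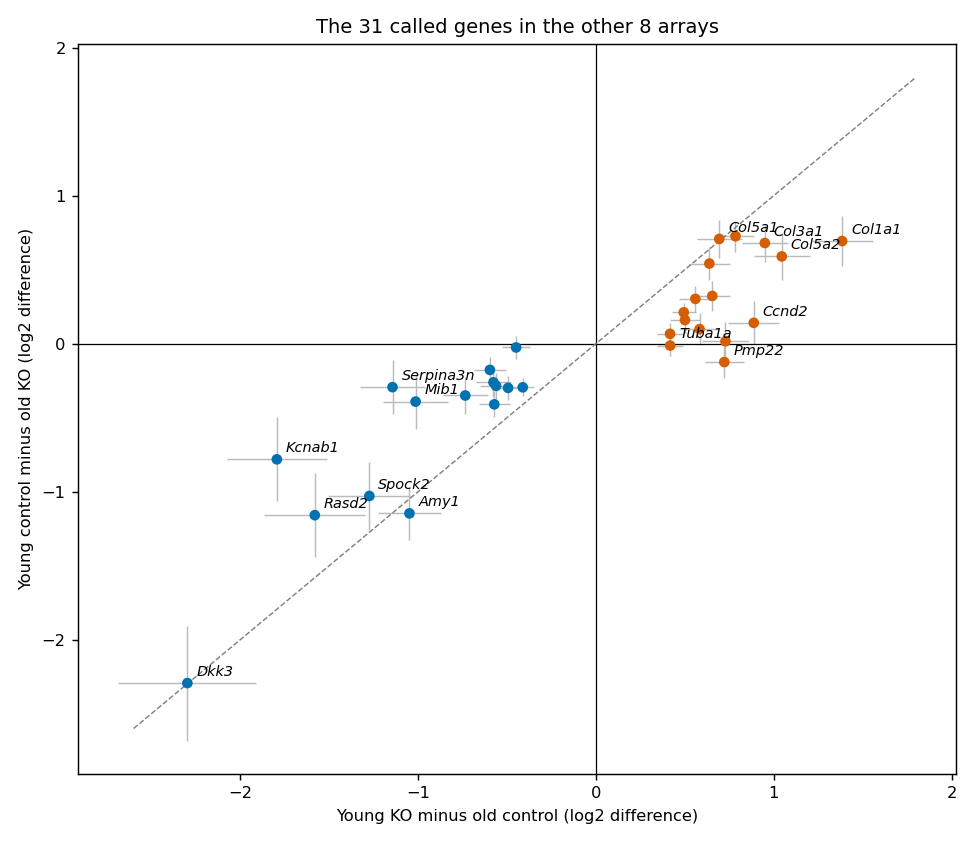
Log2 difference of the 31 called genes in young KO minus old control (horizontal axis) and in young control minus old KO (vertical axis), with bars for 1 SE and a dashed line of equal values. Of the 31 genes 29 lie in the quadrants of equal sign, most of them between the dashed line and 0 on the vertical axis, and Dkk3 lies on the line at -2.30 and -2.29.

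Of the lists, the macrophage, complement and antigen presentation lists had medians below 0 in each contrast, but all 3 turned above 0 in the first with family and the block. Only mice labelled Other occurred at both ages, so the step between ages in that fit rests on them. In the young KO and old control groups only the mice of number 4 had that label. In number 4 the 3 medians were 0.31, 0.31 and 0.26, so family is not told apart from number 4 there. The macrophage median was -0.24 in young KO minus old control and -0.40 in young control minus old KO, and the complement median was -0.16 and -0.35. The glucocorticoid median was -0.33 and -0.36. Antigen presentation had a median of -0.08 and -0.55, and interferon response of 0.05 and -0.38. The collagen median was 0.36 and 0.12, the tendon median 0.52 and -0.18, the slow fibre median 0.88 and -1.11, and the adipocyte median -0.26 and 0.14. Eda2r differed by -0.43 and -1.54, Sesn1 by -0.37 and -1.07, Sesn2 by -0.38 and 0.08, and Igkj1 by -2.74 and -3.51. Sesn1 (limma adjusted p = 0.0145) and Igkj1 (0.04999) were called lower in young control minus old KO, though not in the first contrast. Differences between the 2 contrasts were not tested.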

How the data were processed

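RNA of quadriceps muscle was hybridised to Affymetrix mouse arrays after amplification of 25 ng of total RNA, per the labels' protocols. The authors deposited log2 values, 1 for each probe set, from RMA in the affy package, per the submitters' processing notes; versions are not given in the sources used here. Of 45037 probe sets besides 104 controls, 28898 carried 1 gene symbol in the platform table, 551 several and 15588 none. Only those with 1 symbol were used, the brightest for each of 17097 genes, without a filter on level.

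All 16 arrays were fitted with limma 3.58.1 in R 4.3.3, with 1 mean per group, the replicate number as a fixed block (9 residual degrees of freedom) and trended empirical Bayes moderation; tests were two-sided with Benjamini-Hochberg adjustment over all genes. After removal of group means, young KO and old control arrays of the same number correlated at 0.365 to 0.765 (4 pairs). Arrays of different numbers correlated at -0.737 to 0.631, with a median of -0.533 (12 pairs). The 2 ranges overlap. Each group was centred on its own mean, so its deviations cancel out, and positive values in some pairs go with negative ones in others. These values thus do not settle whether the numbers mark 4 pairs, and the labels do not say what a number means. On simulated data of 17097 genes the fit recovered 43 of 66 genes changed by 0.5, 63 of 66 by 1 and 67 of 68 by 2, with 14 false calls. The labels give 1 mouse per array and a family for each. Young KO numbers 2 and 3 shared family D, and old control numbers 2 and 3 shared family B. The main fit treated the mice as independent apart from the block. The labels do not tell further how independent the mice were. The limma p-values measure the spread left among all 16 arrays after group and replicate number are removed. The median SE was 0.0923 with the block and 0.157 without it.

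Genes named are Mfn2, among those called the 12 most raised, the 12 most lowered and the 15 of smallest p, the genes called in both contrasts, and in each list the called members and up to 4 others of smallest p on the side of its median; exceptions are marked. The members, lists and tests were chosen with earlier results of these data known. Figures were drawn with matplotlib 3.10.9. Alternatives changed the block, the arrays fitted, the choice of probe set, a level filter, the moderation, the normalization, array weights, family and the control signal, and left out arrays.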

Additional observations from a re-analysis of the deposited data

Results flagged for a closer look

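Within the groups, an array was marked as standing apart when its gap to the nearest other array, divided by the group's range, was above Dixon's 95% critical value for 4 arrays. Of 172 sets (86 named genes in 2 groups) 11 were marked, where chance marks about 1 in 20. In young KO muscle the array of number 3 was low for Col5a1 (ratio 0.895, at 7.43), Cd34 (0.848, at 6.26), C1qa (0.830, at 5.24) and Sesn1 (0.921, at 5.93). The array of number 4 was low for Rasd2 (0.881, at 5.90) and Ndufa9 (0.831, at 11.07) and high for Pdlim3 (0.893, at 10.96). Number 1 was low for Ccl9 (0.903, at 6.17), and number 2 was high for Sgk1 (0.879, at 10.05). In old control muscle number 2 was high for H3c11 (0.888, at 5.22), and number 3 was low for Postn (0.906, at 4.09). Of these genes Col5a1, Rasd2 and H3c11 were among the 31 called.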

How the results depend on the processing

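All 31 called genes kept their sign in all of the 23 alternative analyses in which they were present, but their calls did not hold. Counts of higher and lower genes were 3 and 0 without the replicate block, 2 and 6 when only the 8 arrays were fitted, 0 and 1 with family and the block, and 0 and 0 with the pyruvate carboxylase signal and the block. They were 12 and 7 among genes above the median level and 11 and 9 without the trend; other normalizations, robust moderation, mean probe sets and array weights kept each count within 1.5 times. Leaving out 1 array gave 3 to 9 higher and 0 to 5 lower genes, and leaving out 1 replicate number 0 to 5 and 0 to 6. Without number 2, 0 genes were called (smallest limma adjusted p 0.149). Of the genes called in each setting, those with the same sign in young control minus old KO numbered 3 without the block, 17 above the median level, 19 without the trend, 1 with family, and 2 to 11 without 1 replicate number. Signs turned for C1qa with family and the block (0.0873), and for Myh7 with the pyruvate carboxylase signal (-0.40), without young KO number 1 (-0.0642), without old control number 1 (-0.0371) and without replicate number 1 (-0.589, against up to 2.42 without another number); the cause was not tested. Where the text gives a list's median, a change of its sign in an alternative is given beside it. The medians of the fast fibre (0.00025 with family and the block) and Schwann cell lists (-0.0498 with the pyruvate carboxylase signal) also changed sign. So did those of some lists whose median the text does not give, among them muscle identity, which kept its sign in 20 of 23 alternatives. With 4 arrays a group and the simulation's recovery of 43 of 66 genes changed by 0.5, smaller differences may have been missed. The simulation changed 200 genes, more than the 31 called here, and the Benjamini-Hochberg cut-off loosens with more changed genes. Its recovery may therefore be higher than that of this comparison. Genes under the median level of 5.15 lie where signal over background is low.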

Other observations

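A few gene groups not described above had 1 or more members with a low unadjusted limma p and 0 calls. Of 7 red blood cell genes 3 were lower at an unadjusted limma p under 0.05, against 3.67% of all genes, and the list's median was -0.11. These 3 were Alas2, the erythroid enzyme that starts haem synthesis (-0.74), the beta-globin gene Hbb-b2 (-0.33) and the alpha-globin gene Hba-a1 (-0.25). Globin genes are close copies, and blood left in the muscle was not measured. Clock genes were mixed, with 8 of 16 above 0: Dbp, an output gene of the clock, differed by 1.02, Bhlhe40 by 0.67, Nfil3 by -0.60 and the core activator Arntl by -0.61. Hours of tissue collection are not given in the sources used here. The 26 proteasome genes had a median of -0.04, with 22 below 0, and the 17 heat shock genes 0.05, which turned to -0.07 without replicate number 3. These genes were chosen after their values were seen.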
